A study of Mus musculus with 16 samples.

Results

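Npy and Agrp encode neuropeptide Y and agouti-related peptide, the hunger peptides of the arcuate nucleus at the base of the hypothalamus. They were taken by gene name from the count table, and each name matched 1 row, so the account covers 2 of 47069 genes. The rule uses the gene names alone.

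RNA sequencing was done on whole hypothalamus dissected from the brain of C57BL/6N mice, an inbred strain. There were 8 diets with 2 libraries each: 1%, 2.5%, 5% or 20% of energy from protein, each combined with either 60% or 20% of energy from fat. No diet besides these served as a control, so the 20% protein diets are the reference for lower protein within each fat level. Neither age, sex, length of feeding nor the animal behind each library is given in the labels used here, so the p-values take in only how far these libraries differ, and part of that spread may be technical. Fat and protein were the only labelled differences. Both are shares of energy, so the rest of the energy is larger where protein or fat is lower. A change with protein or fat thus cannot be told apart from a change with that rest. The diet codes of the 1% and 2.5% protein diets also start alike, as do those of the 5% and 20% diets. Contrasts of 1% with 2.5% and of 5% with 20% protein lie within a code start, whereas for the other contrasts protein and code start cannot be told apart.

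Both peptides are made by one population of arcuate neurons, which also release the inhibitory transmitter GABA. Neuropeptide Y promotes feeding through Gi-coupled receptors, chiefly Y1 and Y5, while the Y2 receptor sits on the NPY neurons themselves and restrains their release. Agouti-related peptide blocks the melanocortin receptors MC3R and MC4R, which are activated by alpha-MSH, a product of Pomc. Leptin and insulin restrain these neurons, ghrelin excites them, and both transcripts are known to rise on fasting. Npy is also made outside the arcuate nucleus, above all by interneurons of the cortex and hippocampus, whereas Agrp in the brain is largely a mark of the arcuate neurons.

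Npy (ENSMUSG00000029819) lies on the forward strand at chr6:49822710-49829507 of GRCm38, a span of 6798 bases with 1 annotated transcript of 4 exons. No other annotated gene overlaps it. The 250 bases before its annotated start, chr6:49822460-49822709, are shown because the Npy count moved with the diet more than nearly every other gene. They come from RefSeq (GRCm38.p6), read 5′ to 3′ on the forward strand, and capitals mark a CCAAT box read on the reverse strand and a GC box.
Npy promoter: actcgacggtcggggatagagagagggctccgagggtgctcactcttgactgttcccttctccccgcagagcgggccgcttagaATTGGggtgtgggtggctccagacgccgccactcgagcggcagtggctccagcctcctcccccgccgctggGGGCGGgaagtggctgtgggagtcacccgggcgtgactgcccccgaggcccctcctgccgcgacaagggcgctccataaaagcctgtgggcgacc
This stretch was 69.2% G and C, against a median of 52.4% over 32851 promoters of the same length. It held the GC box GGGCGG once, at base -95 from the start, a match that 32.7% of all promoters have on either strand. The CCAAT box (CCAAT, or ATTGG on the other strand) occurred once, at -166, as in 33.8% of promoters. Letters searched on both strands and not found in this window were the TATA box TATAAA (12.4% of promoters), the forkhead motif TGTTTAC (3.17%), the STAT motif TTCNNNGAA (7.02%), the cAMP response half-site TGACG (17.8%), the glucocorticoid receptor half-site AGAACA (16.1%) and the E-box CACGTG (6.02%). The searched motifs do not overlap each other where they were found. Of the 2 genes, the promoter table matched Npy.

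The Agrp row measures less of its gene than the Npy row does. Agrp (ENSMUSG00000005705) is annotated at chr8:105566698-105637393 on the reverse strand, and its deposited length of 70696 bases equals that whole span. Its exons make up 1013 bases in 3 transcripts, and the short transcript Agrp-201 occupies only chr8:105566698-105568298. GENCODE M21 lists 7 genes that overlap the span, 6 of them present in the count table. Among these, the antisense gene Gm38250 had 1 to 9 counts per library, Ctcf, which encodes a chromatin insulator protein, had 1237 to 1385, and Fam65a (now Ripor1), Mir1966, Gm5914 and Gm38384 were at 0 in all 16 libraries.

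Across the table, 545 of the 566 coding genes (96.3%) that lie wholly inside spans of opposite-strand genes were at 0 in every library, as were 207 of 210 (98.6%) inside same-strand spans. Of 8659 coding genes that overlap no counted gene, 15.7% were at 0. Reads in shared stretches were thus largely credited to neither gene, on either strand. All 5 exons of Agrp-201 lie inside Gm38250, and only 238 of the 1013 Agrp exon bases, with 29261 bases (41.4%) of its span, are shared with no counted gene. An Agrp value below is therefore the count of this row, which can take in few reads of the Agrp exons, and not the level of the Agrp messenger RNA.

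**Figure D1:**
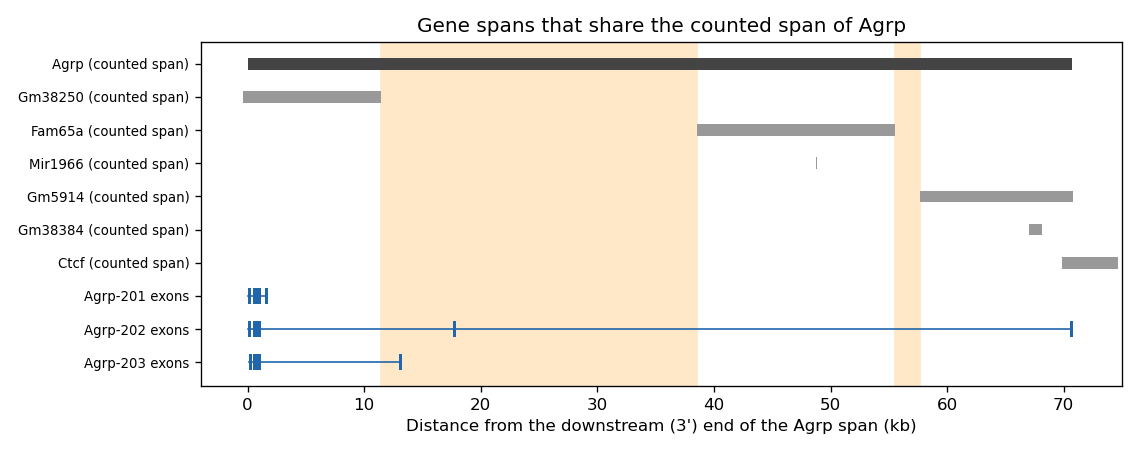
Spans of Agrp and of the counted genes that overlap it, drawn to scale as distance in kilobases from the downstream end of the Agrp span, with the exons of the Agrp transcripts marked and shading where no other counted gene lies. The exons of the short transcript at the left all fall inside Gm38250, and the 3 genes Fam65a, Gm5914 and Ctcf take up further parts of the long span.

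Library totals ran from 17731242 to 18511818 counts. Hypothalamic markers were present in all 16 libraries: none of 12 defining markers was at 0 (675 to 1088 CPM in sum at 1% and 912 to 1065 CPM at 20% protein), and 8 of 9 arcuate markers were detected in each. Kiss1 was at 0 in all, and whether it was absent or lost in counting was not tested. At 1% against 20% protein 4 of the 12 passed, beside 14.3% of all genes tested. Pomc, at -1.91, passed in all 27 alternatives, whereas Crh (0.33), Avp (-0.58) and Sim1 (-0.67) missed the threshold in 10, 14 and 13 of the 27. Leaving out single libraries ended the Crh call in 6 cases and the Avp and Sim1 calls in 11 each. Libraries nevertheless differed in makeup. Markers of cortical and hippocampal excitatory neurons stood above the mean of all libraries by 0.99 (log2) in the 20% fat, 1% protein library 2 and by 2.02 in the 20% fat, 2.5% protein library 2, whereas the other libraries lay between -0.52 and 0.06. The share of counts from mitochondrial genes was 1.54%, 1.61% and 1.78% in both 60% fat, 1% protein libraries and in 20% fat, 1% protein library 1, against 2.19% to 3.20% in the others. A trend with gene length also differed between libraries: across genes, Spearman's rho of gene length with the deviation from the mean of all libraries was -0.261, -0.169 and -0.258 in those 3 libraries, 0.166 in 20% fat, 1% protein library 2, -0.0952 to 0.315 at 20% protein and -0.136 to 0.186 at the other levels. The part of gene length in the results was not tested beyond removing its trend as an alternative. Each of the 4 libraries at 1% protein is thus either rich in cortical markers or low in mitochondrial counts, so no value at 1% protein is free of both, and in bulk tissue fewer cells of a type cannot be told apart from less RNA per cell.

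Npy was highest at 1% protein at both fat levels. On the 60% fat diets with 1% protein, the libraries held 1013 and 1030 Npy counts, or 57.0 and 58.0 CPM (counts-per-million of the library total, scaled by TMM factors). With 20% fat and 1% protein the values were 1562 counts (86.4 CPM) and 2206 counts (119.7 CPM). The other 12 libraries lay at or below 44.3 CPM, so the 4 libraries at 1% protein did not overlap with those of any other protein level. Such separation upwards was seen in 7.4%, 4.9% and 4.13% of genes tested against 20%, 5% and 2.5% protein.

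At 2.5% protein, Npy stood at 26.1 and 25.4 CPM (482 and 467 counts) with 60% fat. With 20% fat it stood at 28.5 and 44.3 CPM (530 and 815 counts). The higher of these is one of the pair of libraries rich in cortical markers, and the remaining 3 libraries at 2.5% protein lay between 25.4 and 28.5 CPM.

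Lower Npy values came with more protein. At 5% protein the libraries held 26.5 and 19.98 CPM (484 and 367 counts) with 60% fat, and 24.7 and 25.2 CPM (455 and 456 counts) with 20% fat. At 20% protein they held 15.1 and 21.4 CPM (281 and 393 counts) with 60% fat, and 18.97 and 13.6 CPM (351 and 254 counts) with 20% fat. The 5% and 20% groups overlapped, since 2 of the libraries at 20% protein, those at 21.4 and 18.97 CPM, reached or came near the lowest library at 5% protein, at 19.98 CPM.

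Ordered by mean Npy level, the diets ran from 20% fat, 1% protein (103 ± 23.6 CPM, SD, n = 2) and 60% fat, 1% protein (57.5 ± 0.666 CPM) to 20% fat, 2.5% protein (36.4 ± 11.2 CPM) and 60% fat, 2.5% protein (25.7 ± 0.513 CPM). The lower part of the order held 20% fat, 5% protein (24.952 ± 0.347 CPM), 60% fat, 5% protein (23.2 ± 4.60 CPM), 60% fat, 20% protein (18.2 ± 4.43 CPM) and 20% fat, 20% protein (16.3 ± 3.84 CPM). The first was separated from the second by 45.5 CPM and the second from the third by 21.1 CPM, both more than the larger SD of the pair. The 2 diets with 2.5% protein did not differ beyond their spread, nor did the 2 with 5% or the 2 with 20% protein. Between 60% fat, 2.5% protein and 20% fat, 5% protein the gap of 0.774 CPM exceeded an SD of 0.513. Between 60% fat, 5% protein and 60% fat, 20% protein the gap of 4.99 CPM exceeded an SD of 4.60, although their libraries overlapped.

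**Figure D2:**
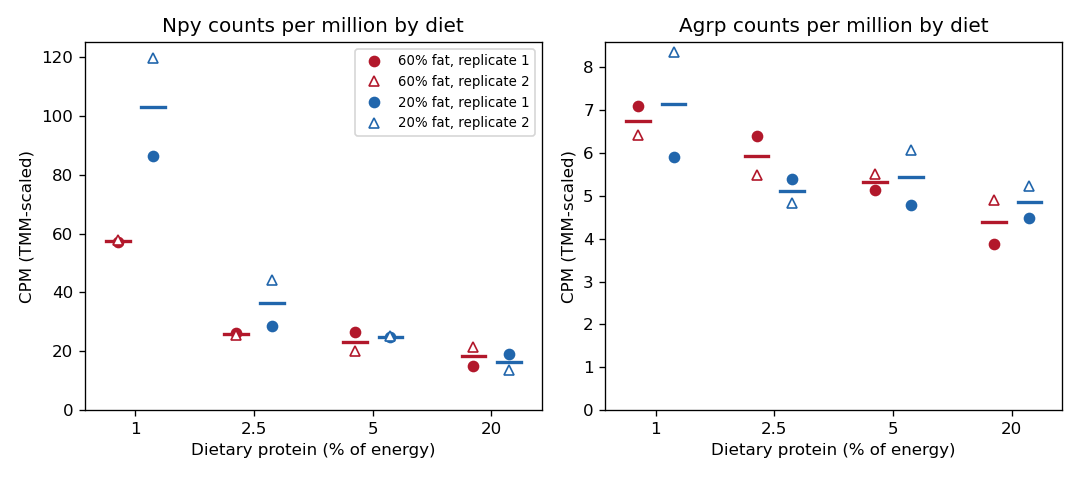
Counts-per-million (CPM) of Npy and of the Agrp row in each of the 16 libraries by dietary protein (% of energy), with colour for fat level, symbol for replicate and a bar for the mean of each diet. The 4 Npy values at 1% protein, from 57.0 to 119.7 CPM, lie above every other library, while the Agrp values range only from 3.87 to 8.36 CPM.

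The Agrp row was also highest at 1% protein, over a narrower range. With 1% protein the values were 7.09 and 6.41 CPM (126 and 114 counts) at 60% fat and 5.92 and 8.36 CPM (107 and 154 counts) at 20% fat. With 20% protein they were 3.87 and 4.89 CPM (72 and 90 counts) at 60% fat and 4.49 and 5.23 CPM (83 and 98 counts) at 20% fat. The 4 libraries at 1% protein all lay above the 4 at 20% protein, as in 7.4% of genes tested.

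The intermediate diets fell in between. At 2.5% protein the Agrp row stood at 6.39 and 5.49 CPM (118 and 101 counts) with 60% fat, and at 5.38 and 4.84 CPM (100 and 89 counts) with 20% fat. At 5% protein it stood at 5.14 and 5.50 CPM (94 and 101 counts) with 60% fat, and at 4.78 and 6.08 CPM (88 and 110 counts) with 20% fat. Both groups overlapped with the 1% and the 20% protein libraries.

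By mean Agrp level the diets ran from 20% fat, 1% protein (7.14 ± 1.73 CPM, SD, n = 2) and 60% fat, 1% protein (6.75 ± 0.479) through 60% fat, 2.5% protein (5.94 ± 0.637), 20% fat, 5% protein (5.43 ± 0.919), 60% fat, 5% protein (5.32 ± 0.251) and 20% fat, 2.5% protein (5.11 ± 0.382) to 20% fat, 20% protein (4.86 ± 0.524) and 60% fat, 20% protein (4.38 ± 0.723). Only the step from the second to the third diet, 0.817 CPM, exceeded the larger SD of its pair. All other neighbours in this order lay within their spread.

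The first question of the design is how expression changed with dietary protein over both fat levels. It was tested with edgeR's quasi-likelihood F test across 16646 genes, with fat as a covariate and Benjamini-Hochberg adjustment, and the 6 contrasts of protein levels share libraries. Npy and the Agrp row rose at 1% against 20% protein, where 14.3% of all genes tested passed 0.05 (8.26% upwards). For Npy the change was 2.17 ± 0.20 (log2 ± SE, adjusted p = 1.1e-05), and for the Agrp row it was 0.59 ± 0.13, or 1.503-fold (adjusted p = 0.0103). Of 14773 genes with a mean of at least 1 CPM, 4 rose more than Npy and 205 more than the Agrp row.

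Npy also rose at 1% protein against each intermediate level. Against 5% protein it rose by 1.70 ± 0.19 log2 units, 3.24-fold (adjusted p = 0.000396), a contrast that 4.87% of genes passed. Against 2.5% protein, within one start of the diet code, it rose by 1.35 ± 0.19, or 2.55-fold (adjusted p = 0.00154), with 2.32% of genes passing. The Agrp row did not pass in either: its differences were 0.37 ± 0.13 against 5% (adjusted p = 0.111) and 0.33 ± 0.13 against 2.5% protein (adjusted p = 0.158).

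Among the 3 higher protein levels no contrast of Npy or of the Agrp row passed. The Npy difference between 2.5% and 20% protein was 0.82 ± 0.20 (unadjusted p = 0.000829, adjusted p = 0.328), where 1 gene of all tested (0.00601%) passed. It was 0.47 ± 0.20 between 5% and 20% (adjusted p = 1; 0.03% of genes passed) and 0.35 ± 0.20 between 2.5% and 5% protein (adjusted p = 1; 0 genes passed with edgeR's quasi-likelihood test and 717 had an unadjusted p under 0.05, against 13 genes passing with DESeq2 and 15 with edgeR's likelihood ratio test). For the Agrp row these differences were 0.26 ± 0.14, 0.22 ± 0.14 and 0.04 ± 0.13, each with an adjusted p of 1.

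Without the pair of libraries rich in cortical markers, Npy at 1% against 20% protein gave 1.97 (adjusted p = 9.66e-07) and the Agrp row gave 0.47 (adjusted p = 0.00926). Without the 3 libraries of low mitochondrial share, which leaves 1 library at 1% protein, the values were 2.70 (adjusted p = 3.03e-05) and 0.85 (adjusted p = 0.0276), and that lone library, which is assumed to vary like the others, is the one rich in cortical markers and with the highest Npy and Agrp values. For Npy at 1% against 5% and 2.5% protein the values were 1.49 and 1.31 without the first set and 2.23 and 1.86 without the second. Among the libraries at 1% protein, the 3 with Npy at 57.0, 58.0 and 86.4 CPM had cortical markers 0.39, 0.46 and 0.33 log2 units below the mean of all libraries. Summed cortical and hippocampal markers were 428 to 763 CPM at 1% and 346 to 453 CPM at 20% protein, and none of the 8 passed. Cortical interneurons are another source of Npy. The 8 genes listed as their markers summed to 446 to 584 CPM at 1% and 442 to 498 CPM at 20% protein. In the libraries rich in cortical excitatory markers the sum was 446 CPM (20% fat, 1% protein library 2) and 531 CPM (20% fat, 2.5% protein library 2). How far these genes mark cortical cells in this tissue was not tested. Their median change was -0.27. Beside 8.26% of all genes tested passing upwards and 6.01% downwards, Sst (0.48) and Pvalb (0.64) passed upwards, and Ndnf (-0.53) and Nos1 (-0.28) downwards. These calls were lost in 7, 1, 4 and 5 of the 27 alternatives, and without the 3 libraries of low mitochondrial share the first 3 were 0.038, 0.61 and -0.19 (adjusted p = 0.926, 0.0778 and 0.684). Leaving out single libraries ended the calls of Sst in 4, Ndnf in 2 and Nos1 in 3 cases. Summed thalamic markers were 625 to 924 CPM at 1% protein and 391 to 534 CPM at 20% protein. Of the 8, 4 passed upwards and none downwards, beside 8.26% and 6.01% of all genes tested. All 4 calls were lost without the 3 libraries of low mitochondrial share, and those of Plekhg1 (0.63), Tcf7l2 (0.62) and Ramp3 (0.75) were lost in 9, 5 and 4 of the 16 cases that left out 1 library. Prkcd, a protein kinase C marker of thalamic neurons, had the largest change (1.06, adjusted p = 0.015), a call lost at 0.93 to 1.00 without 60% fat, 1% protein library 2, 60% fat, 20% protein library 2 or 20% fat, 1% protein library 1. The part of these cell types in the Npy and Agrp results was not tested.

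**Figure D3:**
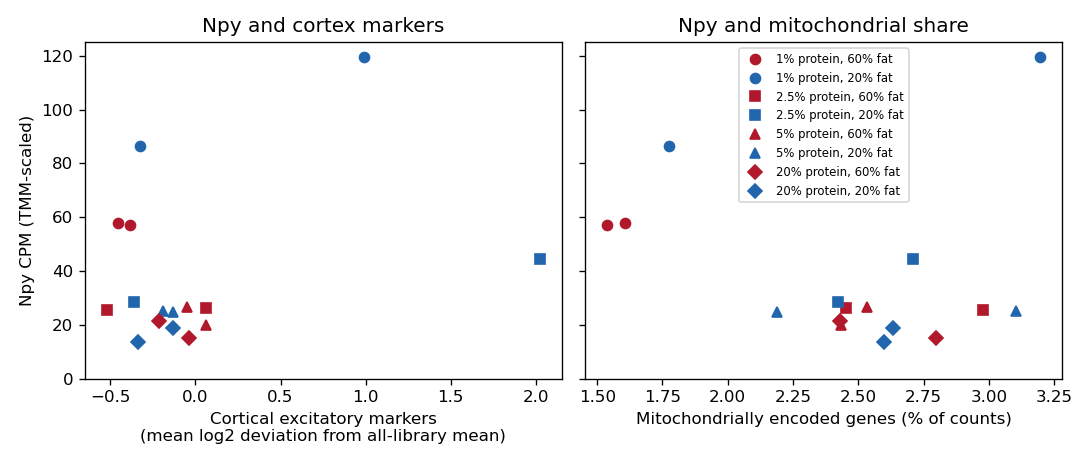
Npy CPM in each library against the mean log2 deviation of 8 cortical and hippocampal excitatory markers (left) and against the share of counts from mitochondrial genes in percent (right), with symbols for protein and colours for fat. The 4 libraries at 1% protein are the highest in both panels, 3 of them at a mitochondrial share of 1.54% to 1.78% and the other at 3.20%.

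At each fixed fat level the 8 diets were fitted as separate groups. With 60% fat, Npy rose at 1% against 20% protein by 1.66 ± 0.23, 3.15-fold (adjusted p = 0.00293; 4.25% of genes passed), although without 60% fat, 20% protein library 1 the value was 1.42 (adjusted p = 0.0677). It rose by 1.31 ± 0.22 against 5% (adjusted p = 0.0406; 0.108% passed) and by 1.16 ± 0.22 against 2.5% protein (adjusted p = 0.0348; 1.09% passed). Both of these calls were lost without any one of the 6 libraries at 60% fat with 1%, 2.5% or 5% protein or of the 2 at 20% fat with 20% protein, at values of 1.11 to 1.51 (adjusted p up to 0.421) and 1.13 to 1.16 (adjusted p up to 0.354).

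With 20% fat, Npy rose by 2.66 ± 0.23 at 1% against 20% protein, 6.34-fold (adjusted p = 7.16e-05; 1.78% of genes passed). It rose by 2.05 ± 0.22 against 5% (adjusted p = 0.00123; 0.523% passed) and by 1.5002 ± 0.21 against 2.5% protein (adjusted p = 0.025; 0.174% passed). The last of these was lost without the 20% fat, 1% protein library 2 (1.24, adjusted p = 0.0724) and when only the 20% fat libraries were fitted (1.49, adjusted p = 0.18). Without the libraries rich in cortical markers the 3 values were 2.41, 1.79 and 1.59, and without those of low mitochondrial share 2.87, 2.26 and 1.70. Each of these rests on a single library at 20% fat with 1% protein. The value of 1.59 also rests on a single library at 2.5% protein. The difference of 1.16 ± 0.23 between 2.5% and 20% protein did not pass (adjusted p = 0.326; 0.012% passed). It passed with DESeq2 (1.17, adjusted p = 0.000922), with edgeR's likelihood ratio test (1.16, adjusted p = 0.00176) and without a count filter (1.16, adjusted p = 4.29e-05). How many of all genes passed in these fits is not given. The difference was 1.45 without 20% fat, 2.5% protein library 1 and 0.82 without library 2 of that diet, each resting on a single library there.

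The Agrp row passed no contrast within a fat level. At 1% against 20% protein its difference was 0.62 ± 0.20 with 60% fat (adjusted p = 0.0703) and 0.55 ± 0.19 with 20% fat (adjusted p = 0.183). The first passed in 8 of 26 alternatives, among them the replicate block (0.63, adjusted p = 0.049) and leaving out either 20% fat, 1% protein library (both 0.61, adjusted p = 0.0294). The second passed with a surrogate variable (0.63, adjusted p = 0.0482). Without the 20% fat, 1% protein library 2 it was 0.28 (adjusted p = 0.426). The remaining contrasts within a fat level lay between -0.09 and 0.48.

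**Figure D4:**
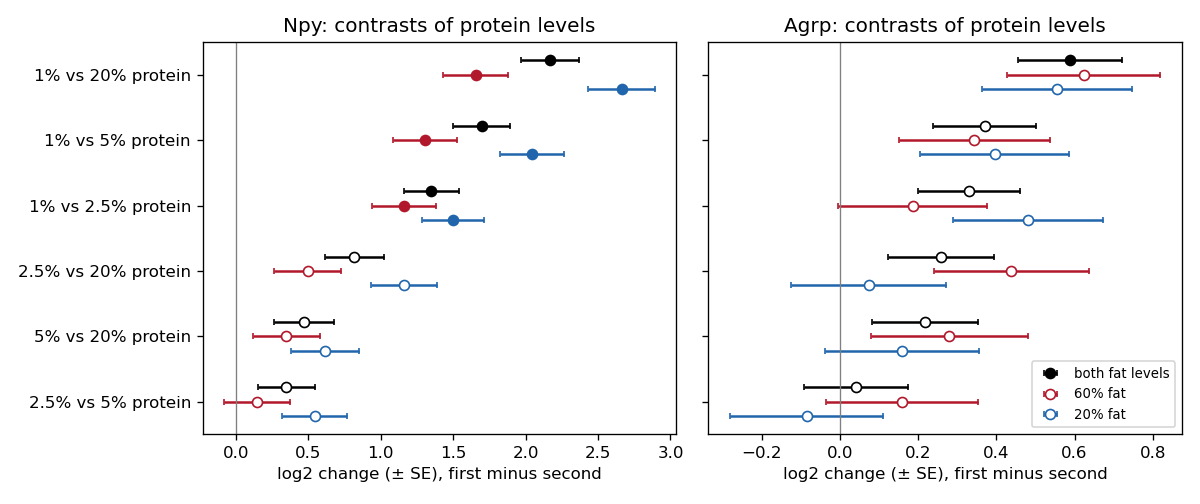
Log2 changes with SE for the 6 contrasts of protein levels, for Npy and for the Agrp row, over both fat levels and within each, where filled points passed an adjusted p of 0.05. All 3 Npy contrasts that involve 1% protein are filled in every fit, while for Agrp only 1% against 20% protein over both fat levels is filled, at 0.59.

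Dietary fat was compared over all protein levels and at each. Npy had a median of 25.7 CPM (15.1 to 58.0) in the 8 libraries with 60% fat and 26.9 CPM (13.6 to 119.7) in the 8 with 20% fat, and the ranges overlapped. The difference, 60% minus 20% fat, was -0.35 ± 0.14 (adjusted p = 0.628; 0.00601% of genes passed), and -0.17 without the libraries rich in cortical markers. For the Agrp row the medians were 5.49 CPM (3.87 to 7.09) and 5.30 CPM (4.49 to 8.36), with a difference of -0.0095 ± 0.094 (adjusted p = 0.976).

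By protein level, the Npy difference between the fat levels was -0.84 ± 0.21 at 1% (adjusted p = 0.162), -0.50 ± 0.22 at 2.5%, -0.10 at 5% and 0.17 at 20% protein, the last 3 with an adjusted p of 1. At 1% protein the 2 libraries with 60% fat held 57.0 and 58.0 CPM and the 2 with 20% fat held 86.4 and 119.7 CPM. For fat at 1% protein, 0 genes passed in edgeR's quasi-likelihood test and 19.1% had an unadjusted p under 0.05. The Npy difference at 1% protein was -0.60 without the 20% fat, 1% protein library 2 and -1.06 without library 1 of that diet. Both values rest on a single library of that diet, and its library 2 is rich in cortical markers. The difference passed with DESeq2 (-0.85, adjusted p = 0.0185), with edgeR's likelihood ratio test (-0.84, adjusted p = 0.0307) and without a count filter (-0.84, adjusted p = 0.00139). How many of all genes passed in these fits is not given. At 2.5% protein the Npy difference was -0.15 without library 2 of the 20% fat diet, the one with most cortical markers.

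Whether the protein change differed between the fat levels was tested as the difference of the 2 contrasts of 1% with 20% protein. For Npy it was smaller with 60% than with 20% fat by -1.01 ± 0.32 on the log2 scale, which did not pass (unadjusted p = 0.00653, adjusted p = 0.623; adjusted p from 0.0565 to 0.996 over the alternatives). For the Agrp row the difference was 0.069 ± 0.28 (adjusted p = 0.954). Of all genes, 0 passed with edgeR's quasi-likelihood test, 0 with DESeq2 and 3 with edgeR's likelihood ratio test, and 1305 had an unadjusted p under 0.05 in the first.

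The series' design text fits protein as a straight line with fat and their interaction. The interaction p was 0.215 for Npy and 0.515 for Agrp, so it was dropped for both. Scaled to the distance from 20% to 1% protein, the slope was 1.67 ± 0.38 for Npy (adjusted p = 0.145) and 0.45 ± 0.14 for the Agrp row (adjusted p = 0.21), in a fit where 0.018% of genes passed. With protein on a log2 scale both passed, at 2.13 (adjusted p = 0.000236) and 0.56 (adjusted p = 0.0158), in a fit where 1311 of 16646 genes passed. When the start of the diet code was added as a covariate, the Npy slope was 0.77 (adjusted p = 0.983).

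The design text also names the Pearson correlation of expression with dietary protein within each fat level. Over the 8 libraries of a fat level, the exact two-sided permutation test has 2520 arrangements, and 4 relations were computed. For Npy, r was -0.683 with 60% fat (p = 0.0393, adjusted p = 0.0524, exact test) and -0.75 with 20% fat (p = 0.0361, adjusted p = 0.0524, exact test). The rank correlations were -0.83 (exact p = 0.0198, adjusted 0.0265) and -0.976 (exact p = 0.000794, adjusted 0.00317). Leaving out the 2 libraries at 20% protein gave r of -0.833 and -0.882 over 6 libraries. On log2 protein, r was -0.871 and -0.919. With 20% fat, r was -0.749 over the 6 libraries without those rich in cortical markers (exact p = 0.0278, adjusted p = 0.0524) and -0.724 over the 7 without the one of low mitochondrial share (exact p = 0.0492, adjusted p = 0.0984).

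For the Agrp row, r was -0.843 with 60% fat (exact p = 0.000794, adjusted p = 0.00317; rho -0.927, exact p = 0.00317, adjusted p = 0.00635). With 20% fat it was -0.494 (exact p = 0.205; rho -0.634, exact p = 0.11), which did not pass. Without the 2 libraries at 20% protein these values were -0.849 and -0.505. The value with 60% fat was -0.818 (exact p = 0.0222, adjusted p = 0.0889) without the libraries of low mitochondrial share, which removes both at 1% protein, and the value with 20% fat was -0.602 without those rich in cortical markers.

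The change of the 2 rows relative to each other was followed as log2 CPM of Npy minus log2 CPM of Agrp in each library. The rows differ in counted length, so this value was compared only between libraries and says nothing of which gene is more abundant. It was 3.84 and 3.82 in the 20% fat, 1% protein libraries and 2.99 and 3.15 in those with 60% fat and 1% protein. In 20% fat, 2.5% protein library 2 it was 3.17, within the range at 1% protein, and in all other libraries it lay between 1.36 and 2.38.

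The mean difference was 3.45 ± 0.45 (SD, n = 4) at 1% protein and 1.86 ± 0.34 at 20% protein. This change of 1.59 had p = 0.0286 in the exact two-sided permutation test, the smallest p that 4 against 4 libraries allow, and an adjusted p of 0.1 over 7 comparisons. Against 5% protein the change was 1.31 (exact p = 0.0286, adjusted p = 0.1) and against 2.5% it was 1.02 (exact p = 0.0857, adjusted p = 0.15). The other 4 comparisons gave exact p-values from 0.0857 to 0.402, fat among them at -0.31. Without the libraries rich in cortical markers the changes against 20%, 5% and 2.5% protein were 1.47, 1.19 and 1.13, and that of fat was -0.0155. Without those of low mitochondrial share they were 1.96, 1.68 and 1.39, each against 1 library at 1% protein, where the exact test cannot go below 0.2.

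Across the 12 libraries at 2.5% to 20% protein, log2 CPM of Npy and of the Agrp row had r = 0.318 (permutation p = 0.309) and rho = 0.308 (permutation p = 0.331). Without the 2 libraries farthest from the median of Npy, r was 0.751 over 10 libraries, so the pooled value rests on those 2. The 4 libraries at 1% protein form a separate cluster for Npy, and no pooled test of Npy with Agrp over all 16 is given.

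Other genes were ranked by Pearson's r of log2 CPM over all 16 libraries, as a description across libraries that share diets and depth, among 13136 named genes with a mean of at least 1 CPM. Most like Npy were Camkk1 (r = 0.935), which encodes a calcium/calmodulin-dependent kinase kinase, Elmsan1 (0.917), Cnih3 (0.914), an auxiliary subunit of AMPA receptors, Pla2g3 (0.908), a secreted phospholipase, and Ccl17 (0.901), a chemokine. Nearest to the Agrp row were Prkrir (0.895), Agtr1a (0.84), an angiotensin II receptor, Gabrr2 (0.834), a GABA receptor subunit, Rhoj (0.834), a small GTPase, and Pip5k1b (0.827), a phosphoinositide kinase. Over the 14 libraries without those rich in cortical markers, r was 0.897 to 0.92 for the 5 genes nearest to Npy and 0.709 to 0.835 for those nearest to the Agrp row. Over the 13 without those of low mitochondrial share it was 0.84 to 0.898 and 0.818 to 0.887. By r over all 16 libraries Agrp ranked 270th for Npy and Npy 52nd for Agrp. Neither was among the nearest 5 of the other. All these r over 16 libraries take in the split between 1% protein and the other levels. The 5 genes nearest to Npy each passed edgeR's test at 1% against 20% protein (adjusted p from 3.16e-05 to 0.00137), beside 14.3% of all genes. Those nearest to the Agrp row passed too, except Agtr1a (adjusted p = 0.0893). All these genes were picked by their r over the same libraries, so their passing was likely beforehand and adds nothing to the r.

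Pathway genes around the peptides were counted at 1% against 20% protein in 6 lists holding 50 genes, 48 of which were tested. Of these, 5 rose, 8 fell and 35 did not pass, with a median change of -0.02, beside 8.26% of all genes rising, 6.01% falling and a median of 0.0035. The count of genes that fell was 14 without 20% fat, 1% protein library 2, and 5 without library 1 of that diet, 60% fat, 1% protein library 2 or 20% fat, 20% protein library 2. The count that rose was 3 without either 60% fat, 1% protein library or without 60% fat, 20% protein library 1. Without the 3 libraries of low mitochondrial share, 2 rose and 2 fell.

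Of the receptors for neuropeptide Y and the peptidase that trims it, 4 of 6 were tested, Npy4r and Npy6r being too low. Npy2r, the autoreceptor, fell by 0.41 ± 0.10 (adjusted p = 0.0124), from 21.98 ± 0.82 CPM (SD, n = 4) at 20% protein to 16.6 ± 1.71 CPM at 1% protein, and its libraries did not overlap (14.97 to 18.56 against 21.5 to 23.2 CPM), a separation downwards that 6.35% of genes tested showed. Npy1r and Npy5r, the receptors through which the peptide promotes feeding, differed by 0.04 (adjusted p = 0.816) and -0.03 (adjusted p = 0.908). None of the 4 rose.

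In the melanocortin list, 1 of 6 genes fell and none rose. Pomc, the precursor of alpha-MSH, fell by 1.91 ± 0.19 (adjusted p = 2.67e-05), a 3.75-fold lower level, and stood at 12.7 ± 1.203, 25.3 ± 8.77, 37.7 ± 6.12 and 47.5 ± 7.56 CPM (SD, n = 4 each) at 1%, 2.5%, 5% and 20% protein. It was also lower at 1% than at 2.5% protein, by -0.98 ± 0.19 (adjusted p = 0.015). The receptors that Agrp blocks, Mc3r and Mc4r, differed by 0.07 (adjusted p = 0.741) and -0.01 (adjusted p = 0.968).

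Genes for peptide processing had 3 of 6 rising and 1 falling, with a median of 0.10. Pcsk2, a prohormone convertase, rose by 0.35 ± 0.05 (adjusted p = 0.000456), from 214.7 ± 2.85 to 274 ± 12.5 CPM. Cpe, the carboxypeptidase that trims the cut ends, rose by 0.28 ± 0.04 (adjusted p = 0.000987), and Pcsk1n, an inhibitor of Pcsk1, by 0.34 ± 0.10 (adjusted p = 0.0331). Pcsk1, the convertase that makes the first cut in proneuropeptide Y, fell by 0.33 ± 0.06 (adjusted p = 0.00374), from 41.9 ± 1.29 to 33.4 ± 1.84 CPM. The enzymes thus moved in both directions.

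Among 17 genes of hormone and fuel sensing, 1 rose and 3 fell, with a median of -0.0043. Socs3, a leptin-induced inhibitor of leptin receptor signalling, fell by 0.79 ± 0.15 (adjusted p = 0.00311), from 4.41 ± 0.484 to 2.55 ± 0.144 CPM, and its groups did not overlap, as in 6.35% of genes tested downwards. Stat3, which carries the leptin signal to the nucleus, fell by 0.20 ± 0.06 (adjusted p = 0.0424), and Htr1b, a serotonin receptor of these neurons, by 0.46 ± 0.13 (adjusted p = 0.0291). Ucp2, a mitochondrial carrier, rose by 0.39 ± 0.08 (adjusted p = 0.00479). The leptin receptor gene Lepr had a difference of -0.58 (adjusted p = 0.121) and the ghrelin receptor gene Ghsr 0.20 (adjusted p = 0.252). Ghsr did rise at 1% against 5% protein, by 0.52 ± 0.12 (adjusted p = 0.0232).

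Of 10 transcription factors and cofactors known to act at Npy or Agrp or in their neurons, 1 rose and 1 fell. Foxo1, which insulin keeps out of the nucleus and which activates both genes, rose by 0.34 ± 0.09 (adjusted p = 0.0238), and Nr3c1, the glucocorticoid receptor, fell by 0.25 ± 0.07 (adjusted p = 0.0267). Without 60% fat, 1% protein library 1 the values were 0.30 (adjusted p = 0.079) and -0.24 (adjusted p = 0.0766), and neither passed without library 2 of that diet (0.27 and -0.21) or without 60% fat, 20% protein library 1 (0.25 and -0.23). Bsx and Klf4, which bind the Agrp promoter, differed by 0.17 (adjusted p = 0.411) and -0.23 (adjusted p = 0.262).

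Of 7 other markers of the hunger neurons, 1 fell, none rose, and the median was 0.04. Gad2, an enzyme that makes GABA in these and many other neurons, fell by 0.34 ± 0.08 (adjusted p = 0.0155), from 455 ± 21.9 to 360 ± 40.0 CPM. Corin, a protease of these neurons, Acvr1c, an activin receptor, and Otp, a homeobox factor of their lineage, differed by 0.04, 0.07 and 0.10, with adjusted p-values of 0.926, 0.823 and 0.648. Among 8 arcuate markers tested, Isl1 fell by 0.37 (adjusted p = 0.0238) and none rose. Isl1 did not pass without 60% fat, 1% protein library 2, either 60% fat, 20% protein library or 20% fat, 20% protein library 2 (-0.38 to -0.33). For all 8 markers, the summed level was 75.8 to 92.8 CPM at 1% and 87.3 to 95.3 CPM at 20% protein.

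Of the 13 pathway genes that passed, Pomc, Pcsk2 and Cpe also passed in each of the 27 alternatives. Without the 3 libraries of low mitochondrial share Stat3 passed too, at -0.40, and the other 9 did not: the values were -0.30 for Npy2r (adjusted p = 0.398), -0.89 for Socs3 (adjusted p = 0.1), -0.23 for Pcsk1 (adjusted p = 0.287) and 0.19 for Ucp2 (adjusted p = 0.472). In the alternatives other than leaving out a single library, Pcsk1n shrank to as little as 0.0154, Nr3c1 to -0.084 and Gad2 to -0.14. Foxo1 and Htr1b shrank to 0.24 and -0.33 there. The part of the mitochondrial share in these results was not tested.

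Single libraries ended some of these calls. Pcsk1n gave 0.27 to 0.33 (adjusted p from 0.0511 to 0.14) without any 1 of the 60% fat libraries at 1% or 20% protein, 60% fat, 5% protein library 2, 20% fat, 1% protein library 1 or 20% fat, 20% protein library 2. Stat3 gave -0.23 to -0.17 (adjusted p from 0.0561 to 0.0863) without library 2 of the 60% fat diets at 1% or 20% protein, 20% fat, 1% protein library 1 or either 20% fat, 20% protein library. Htr1b gave -0.49 to -0.34 (adjusted p from 0.0514 to 0.0965) without library 1 of the 60% fat diets at 1% or 20% protein, 20% fat, 1% protein library 1 or 20% fat, 20% protein library 2. Gad2 gave -0.33 without 60% fat, 1% protein library 2 (adjusted p = 0.0528) or 20% fat, 1% protein library 1 (adjusted p = 0.0521), and Nr3c1 gave -0.25 without 20% fat, 20% protein library 2 (adjusted p = 0.0749).

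**Figure D5:**
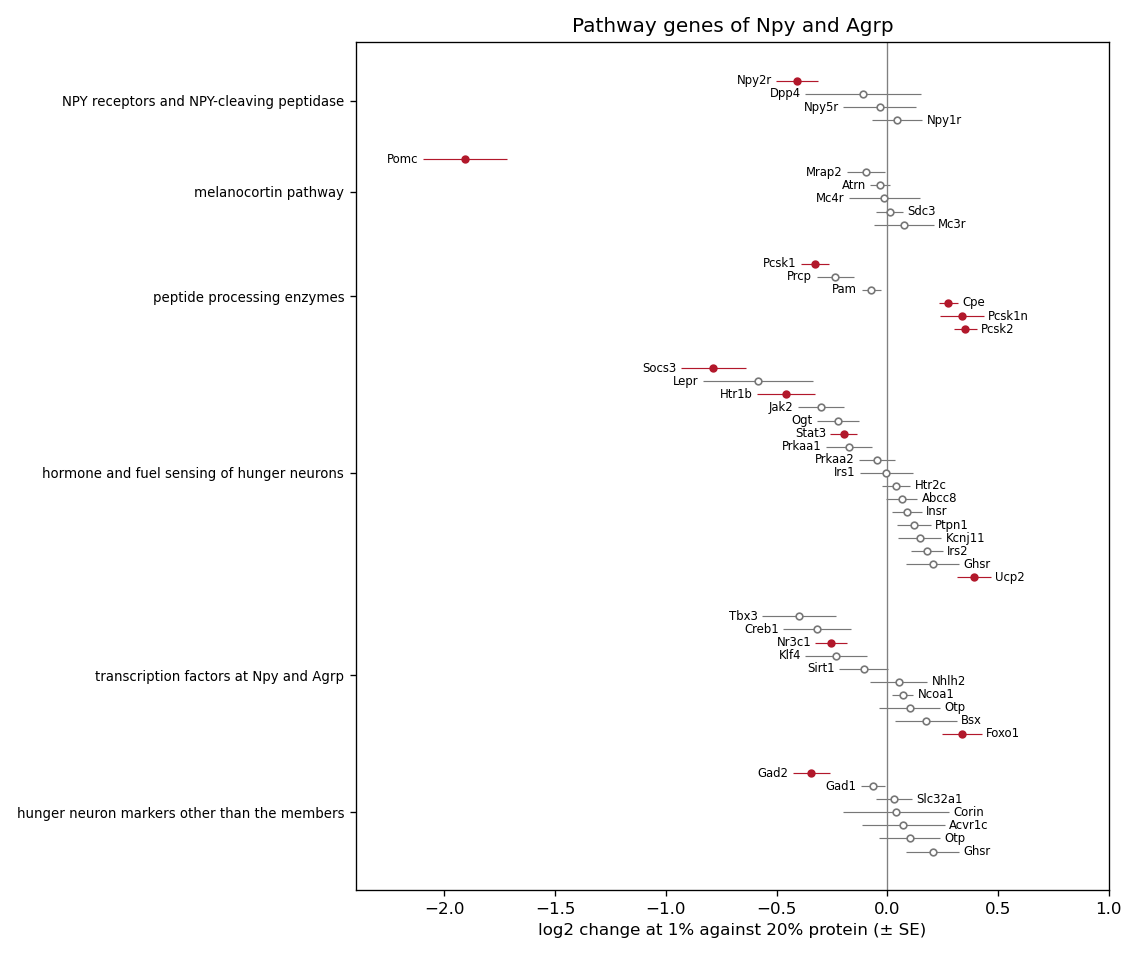
Log2 change at 1% against 20% protein, with SE, for the tested genes of the 6 pathway lists, each point a named gene and filled where the adjusted p was under 0.05. Pomc at -1.91 lies far to the left of all others, and the remaining points lie between -0.79 and 0.39.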

How the data were processed

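The deposited table holds raw gene counts of 16 hypothalamus libraries, which the authors left unnormalised. Per the submitters' processing notes, the tools were edgeR, featureCounts, Subread 5.0, SAMtools 1.2, HISAT2 2.1.0 and FastQC, and the build GRCm38. Strand setting and counted feature are not given in the sources used here. Per the file headers a gene length accompanies each row, and it equalled the gene's whole span within 1 base for 86.1% of 46488 identifiers matched to GENCODE M21.

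The 16646 genes passing filterByExpr at a minimum count of 10 were tested after TMM scaling. Tests used edgeR 4.0.16 (quasi-likelihood F test, R 4.3.3) over all 16 libraries, with Benjamini-Hochberg adjustment over all genes at 0.05. The models took protein as 4 levels with fat, the 8 diets as groups, or protein as a line, with no replicate block. Log2 CPM used a prior count of 2. SEs are the log2 change divided by the square root of F. Permutation tests were exact and two-sided, or used 100000 resamples. Alternatives used DESeq2 1.42.0, sva 3.50.0, other scalings and filters, and fewer libraries. The script was tested on simulated data.

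The 2 genes, the pathway and marker lists and the tests were chosen with earlier results of these data known. Named genes are Npy and Agrp, Pomc and up to 4 genes past the threshold per list, the 5 genes most like each, overlapping genes, and the marker of largest change. Receptors, hormone receptors, transcription factors and neuron markers that did not pass, the other interneuron markers, Isl1 and Kiss1 were named outside this rule, after their values were seen.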

Additional observations from a re-analysis of the deposited data

Results flagged for a closer look

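Dixon's test was applied to 12 groups of 4 or 8 libraries, and chance flags about 1 group in 20. Npy at 2.5% protein had a library far from the others: 20% fat, 2.5% protein library 2 stood at 44.33 CPM, and its gap to the next library, divided by the range of the 4, was 0.834, just past the critical value for 4 libraries. Its cortical and hippocampal markers were the highest of all libraries, at 2.02 above the mean on the log2 scale, and their part in this value was not tested.

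The Agrp row among the 8 libraries with 20% fat had its highest value, 8.356 CPM, in 20% fat, 1% protein library 2, where the gap over the range was 0.589, past the critical value for 8. These 8 libraries span all 4 protein levels. The same library had the highest Npy value, 119.7 CPM, and the second highest cortical markers.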

How the results depend on the processing

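Npy at 1% against 20%, 5% and 2.5% protein and the Agrp row at 1% against 20% protein, over both fat levels, kept their direction and call in all 27 alternatives, at 1.97 to 2.70 for Npy and 0.47 to 0.85 for Agrp at 1% against 20%. With the replicate block these were 2.17 (adjusted p = 1.39e-05) and 0.59 (adjusted p = 0.00803). The replicate numbers did not pair the libraries (correlation of deviations from -0.17 to 0.339 over 28 pairs of diets, 7 of them over 0.1). Agrp at 1% against 20% protein with 60% fat passed with the replicate block (0.63, adjusted p = 0.049), the likelihood ratio test and no count filter (both 0.62), the length trend removed (0.71) and without cortex-marker libraries or with 60% fat libraries only (both 0.61). It ranged from 0.46 to 0.79 without single libraries, passing without either 20% fat, 1% protein library (both 0.61), and was 0.94 with a surrogate variable, which did not pass (adjusted p = 0.101). One surrogate variable brought Agrp past the threshold at 1% against 5% (0.47) and, with 20% fat, at 1% against 20% protein (0.63). Npy at 2.5% against 20% protein passed with the likelihood ratio test (0.81) and no filter (0.82). The Npy slope passed with DESeq2 and the likelihood ratio test (both 1.63), where 82 and 100 of all genes passed. On log2 protein, where 1311 genes passed, both slopes passed (2.13 and 0.56), as did the Npy correlations (-0.871 and -0.919). The Agrp correlation with 60% fat was -0.818 without low-mitochondrial libraries and did not pass.

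Signs near 0 turned. The Agrp fat difference was 0.0153 with the length trend removed, 0.0697 with a surrogate variable, 0.0169 without cortex-marker libraries, 0.018 without low-mitochondrial libraries and -0.0519 to 0.0487 without single libraries. At 1% protein it was 0.1941 with a surrogate variable, 0.1823 without cortex-marker libraries and -0.3088 to 0.1826 without single libraries, and at 5% protein 0.0197 with a surrogate variable and -0.1919 to 0.1552 without single libraries. Leaving out single libraries gave, for Agrp, -0.1606 to 0.3308 for the difference between fat levels, -0.3229 to 0.0081 for fat at 20% protein, and -0.0426 to 0.1102 for 2.5% against 5% protein. With 20% fat it gave -0.0307 to 0.19, -0.025 to 0.3247 and -0.2479 to 0.1002 for Agrp at 2.5% against 20%, 5% against 20% and 2.5% against 5% protein. For Npy it gave -0.3222 to 0.0829 and -0.1013 to 0.4284 for fat at 5% and 20% protein, -0.0386 to 0.3667 for 2.5% against 5% with 60% fat, and 1.42 to 1.91 for 1% against 20% with 60% fat.

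Pathway genes that rose numbered 3 to 5 without single libraries, 2 without low-mitochondrial libraries and 3 in the 8 libraries compared. Those that fell numbered 5 to 14, and 4 with a surrogate variable, 14 without cortex-marker libraries, 2 without low-mitochondrial ones and 5 in the 8 libraries. Over all genes, 2376 passed at 1% against 20% protein and 403 to 5889 in the alternatives. The cause of these changes was not tested. Leaving out low-mitochondrial libraries, and leaving out cortex-marker libraries for correlations and for Npy minus Agrp, were chosen after seeing the data. With 72 to 154 counts per library, the Agrp row is the less precise of the 2.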
